A study of Mus musculus with 12 samples.

Results

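Genes that cells switch on in answer to interferon, together with genes that load peptides onto class I molecules, were followed over 5 days after Esrrb was withdrawn from mouse embryonic stem cells (mESCs). The 43 genes were named by symbol as interferon-stimulated genes, guanylate-binding and immunity-related GTPases and class I antigen presentation genes. A gene was measured where at least 1 probe set of the array carries its symbol and no other. This held for 37 of the 43, out of 19938 genes measured in this way. The other 6, Isg15, Irgm2, Igtp, Gbp2, H2-K1 and H2-D1, have only probe sets that they share with another gene. The question was whether single rises such as those of Irgm1 and Gbp2b belong to a response shared by the group.

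The cells were Esrrb_R, a rescue clone of the Ainv15 mESC line, so that all arrays come from 1 clone. In this clone a short hairpin RNA against endogenous Esrrb is always made, and a GFP-tagged Esrrb that escapes it is made only in doxycycline (Dox). Day 0 cells were in 1 µg/ml Dox, and cells of days 1, 3 and 5 were without it, all in serum and Lif. Each day had 3 biological replicates, 12 arrays in all. All groups carry the hairpin and the transgene, and no array of cells kept in Dox for 5 days or of a line without the hairpin was analysed here, so loss of Esrrb, removal of Dox and time in culture cannot be told apart. Values are log2 signals. In a bulk sample, fewer cells of a type and less RNA per cell cannot be told apart.

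Interferons are secreted proteins that bind receptors coupled to Janus kinases. Type I interferons act through Stat2 and Irf9 on the interferon-stimulated response element, while interferon gamma acts on the gamma-activated site and switches on Irf1 early. The genes switched on include RNA sensors, proteins that block viral entry or copying, GTPases that act on the vacuoles of intracellular pathogens, and the peptide supply of class I molecules. Pluripotent stem cells are known for a weak answer to interferon and to double-stranded RNA.

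Esrrb itself had log2 signals of 11.59, 11.54 and 11.63 at day 0, 9.09, 9.15 and 9.16 at day 1, 8.20, 8.07 and 8.34 at day 3, and 8.15, 8.28 and 8.13 at day 5. It was below day 0 on every later array, and at day 5 it fell by 3.40 (limma, adjusted p = 2.7e-11). The mean of 14 embryonic stem cell markers lay between 10.48 and 10.59 on the arrays of day 5, against 11.41 to 11.46 at day 0, with 12 of the 14 called lower and 1 higher. Esrrb is itself 1 of these 14 markers and of the 12, and its fall was set by the design. Markers of fibroblasts, on which the line is maintained, were read too, although the cells of the experiment were grown on gelatin and not on feeder cells, and so were markers of leukocytes and endothelium. The mean of 16 fibroblast markers lay between 7.53 and 7.61 at day 0, 7.49 and 7.51 at day 1, 7.11 and 7.13 at day 3, and 7.31 and 7.39 at day 5. Of these 16, 1 was called higher and 10 lower at day 3, led by Col1a2 (-1.44), Prrx1 (-1.29) and Fbln2 (-1.23), and 1 higher and 4 lower at day 5, with 7 higher and 2 lower at day 5 than at day 3. The shares at day 3 were 6.25% higher and 62.5% lower, against 13.5% and 13.1% of all genes. At day 5 they were 6.25% and 25.0%, against 17.4% and 17.6%. Between days 3 and 5 they were 43.8% and 12.5%, against 13.0% and 12.2%. Lum and Fap were near background on every day. Of 14 leukocyte markers, 8 to 10 were near background on each day, Ptprc, Csf1r and Adgre1 among them. Of 8 endothelial markers, 2 were higher at day 5 (Flt1 by 2.26 and Tek by 0.80) and 2 lower (Pecam1 by 1.11 and Kdr by 0.42), Emcn and Erg were near background, and the mean lay between 7.17 and 7.27 at day 0, 7.08 and 7.18 at day 1, 6.93 and 7.06 at day 3, and 7.28 and 7.44 at day 5. At day 5 the shares called higher and lower were 25.0% each for the endothelial markers. For the embryonic stem cell markers, Esrrb included, they were 7.14% and 85.7%. The part of these cell types in the results was not tested. Near background means a log2 signal at or below the 95th percentile of the 1027 olfactory receptor genes on the same array, which lay between 6.21 and 6.42.

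Of the 37 genes, 28 have a promoter window in RefSeq, build GRCm38.p6, of 250 bases before to 50 bases after a start. The letters GAAANNGAAA, a core of the interferon-stimulated response element read on both strands, stood in the window of 14 of these 28 genes and in 3.99% of all 27025 genes with a window. The gamma-activated site, TTCNNNGAA, stood in 6 of the 28, against 9.55% of all genes, and AAGGTCA, a motif that Esrrb can bind, in 2 of the 28 (Irf9 and Psmb10), against 5.38%. In Bst2 and Ifitm3 the first and second of these motifs overlap. A match describes the letters and is neither a bound site nor a cause. The stretches below are shown because the first 4 genes rose at all 3 days, B2m only at day 5, Ifitm2 fell and Ifit1 and Stat2 were not called against day 0, and all 8 carry the same letters. Capitals mark GAAANNGAAA or its reverse complement, and in the last stretch the gamma-activated site of Irf1. The overlapping gamma-activated site of Bst2 starts in the lower-case letters before its capitals.
Gbp2b, chr3:142594698-142594731, + strand: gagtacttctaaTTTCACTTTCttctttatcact
Gbp3, chr3:142559987-142560026, + strand: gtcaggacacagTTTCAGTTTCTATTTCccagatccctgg
Irgm1, chr11:48871423-48871462, - strand: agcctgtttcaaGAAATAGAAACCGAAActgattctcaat
Bst2, chr8:71537575-71537614, - strand: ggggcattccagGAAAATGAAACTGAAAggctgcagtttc
B2m, chr2:122147536-122147569, + strand: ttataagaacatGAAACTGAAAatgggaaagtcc
Ifitm2, chr7:140955986-140956019, - strand: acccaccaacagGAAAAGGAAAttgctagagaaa
Stat2, chr10:128270264-128270297, + strand: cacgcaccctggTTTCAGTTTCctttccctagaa
Ifit1, chr19:34640773-34640825, + strand: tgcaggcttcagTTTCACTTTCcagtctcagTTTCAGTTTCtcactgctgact
Irf1, chr11:53769912-53769944, + strand: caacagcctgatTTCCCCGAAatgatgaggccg

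The 37 genes did not move as 1 group. Over the 3 days, 17 rose on at least 1 day (45.9%, against 24.6% of all genes), 10 fell on at least 1 day (27.0%, against 22.5%), 10 were called on no day (27.0%, against 54.9%), and 0 went both ways by limma (against 2.02%). At day 1, 11 of the 37 were called higher (29.7%) and 2 lower (5.41%), against 6.45% and 4.48% of all 19938 genes (limma, Benjamini-Hochberg adjusted p under 0.05 over all genes). At day 3, 11 were higher (29.7%) and 8 lower (21.6%), against 13.5% and 13.1% of all genes. At day 5, 16 were higher (43.2%) and 8 lower (21.6%), against 17.4% and 17.6% of all genes. The share of the group called higher was thus above that of all genes on each day, while the median change of the group stayed near that of all genes, 0.02 against 0.01 at day 1, 0.03 against 0.00 at day 3 and 0.08 against -0.02 at day 5. Without day 0 replicate 3 the count of genes lower at day 3 was 5, beside 12.3% of all genes. The count lower at day 1 was 1 without day 0 replicate 3, day 1 replicate 2 or day 1 replicate 3. The shares of all genes were then 4.57%, 3.15% and 2.52%.

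**Figure D1:**
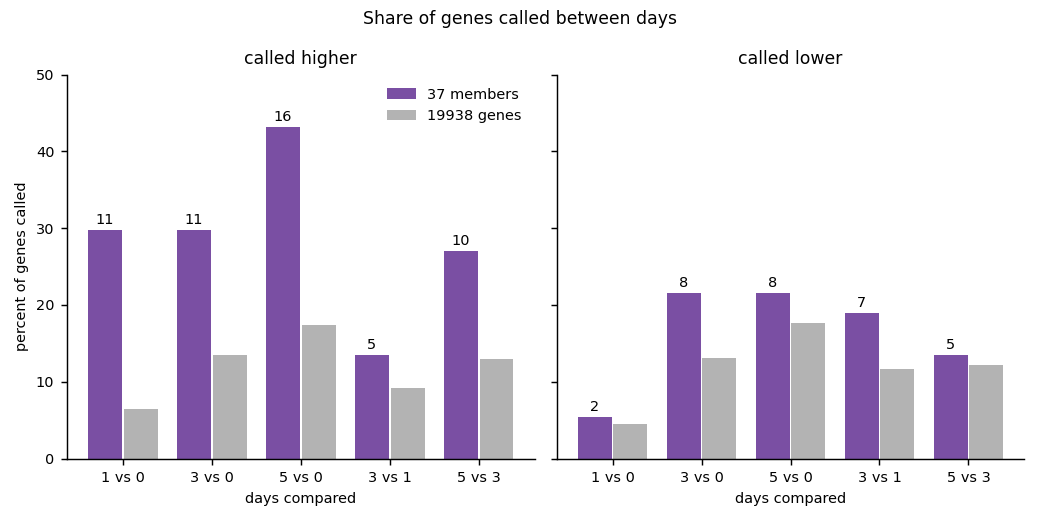
Percent of genes called higher (left) and lower (right) in 5 comparisons of days, for the 37 interferon-stimulated and antigen presentation genes (purple, with their number above the bar) and for all 19938 genes (grey). At day 5 against day 0 the bars called higher stand at 43.2% for the 37 genes and 17.4% for all genes, and the bars called lower at 21.6% and 17.6%.

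The shares of calls were also read for rises that lasted, as a description, since the genes were chosen with results known. Irf1, Bst2, Parp9, Dtx3l, Irgm1, Gbp2b, Gbp3, Tapbp and Psmb10 were called higher at all 3 days, 9 of 37 (24.3%), against 2.67% of all genes. The call of Tapbp at day 1 (adjusted p = 0.043) was lost after median centring, with every probe set tested and without most single arrays. Ube2l6 was the 1 gene lower at all 3 days (2.70%, against 2.66% of all genes). More than 2-fold higher at day 5 were Gbp2b, Gbp3, Irgm1, Tapbp and Parp9, 5 of 37 (13.5%, against 1.97% of all genes), and more than 2-fold lower was Ube2l6 (2.70%, against 1.43%). With a moderated F test over the 3 days, 25 of the 37 were called (67.6%), against 45.6% of all genes. By the rule of the study's methods, a Bonferroni-corrected p under 0.05 and a total fold change over 2, 3 genes passed (Gbp2b, Gbp3 and Ube2l6, 8.11%), against 2.11% of all genes.

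The largest rises were those of GTPases. Gbp2b and Gbp3 encode guanylate-binding proteins, which gather on the vacuoles of intracellular pathogens. Gbp2b had log2 signals of 6.95, 7.19 and 6.89 at day 0, 7.89, 8.08 and 7.90 at day 1, 8.29, 8.40 and 8.41 at day 3, and 10.29, 9.92 and 10.12 at day 5. The 4 days did not overlap, and each step was called. It was 8.57-fold higher at day 5 than at day 0 (log2 change 3.10, standard error 0.10, adjusted p = 5.3e-10 from limma), with 1.74 of that change between days 3 and 5. Gbp3 had 6.40, 6.34 and 6.42 at day 0, 7.26, 7.21 and 7.07 at day 1, 7.33, 7.43 and 7.60 at day 3, and 9.01, 8.73 and 8.96 at day 5. Its arrays also stood apart by day, 5.70-fold higher at day 5 than at day 0 (log2 change 2.51, standard error 0.09, adjusted p = 8.6e-10 from limma). Gbp7, a neighbour of Gbp3 in the cluster on chromosome 3 and not among the 37, rose by 0.91, 1.25 and 2.22 at days 1, 3 and 5.

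Irgm1, which controls the other immunity-related GTPases and autophagy, moved in another way. Its log2 signals were 7.13, 7.29 and 6.95 at day 0, 8.61, 8.67 and 8.56 at day 1, 7.54, 7.65 and 7.73 at day 3, and 9.06, 8.54 and 8.75 at day 5. All arrays of day 1 lay above all of day 3, and all of day 3 above all of day 0. It was 2.81-fold higher at day 1 than at day 0 (log2 change 1.49, adjusted p = 4.4e-06 from limma), lower at day 3 than at day 1 by 0.97 (adjusted p = 8.3e-05), and higher again at day 5 than at day 3 by 1.14 (adjusted p = 1.3e-05). At day 5 it was 3.16-fold above day 0. Iigp1, an effector GTPase of the same family, was near background on all arrays and was not called against day 0, with a change of 0.22 at day 5 (95% confidence interval 0.01 to 0.44, adjusted p = 0.10). A list of further GTPases related to both families held 11 measured genes. Of these, 2 rose at day 5 (Gbp7 and Atl1), 0 fell by limma (1 at an unadjusted p under 0.05) and 9 were not called. The share higher, 18.2%, was near the 17.4% of all genes, and the share lower was 0.0%, against 17.6%. Gbp4 was called lower at day 3, by 0.56 (adjusted p = 0.013 from limma).

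**Figure D2:**
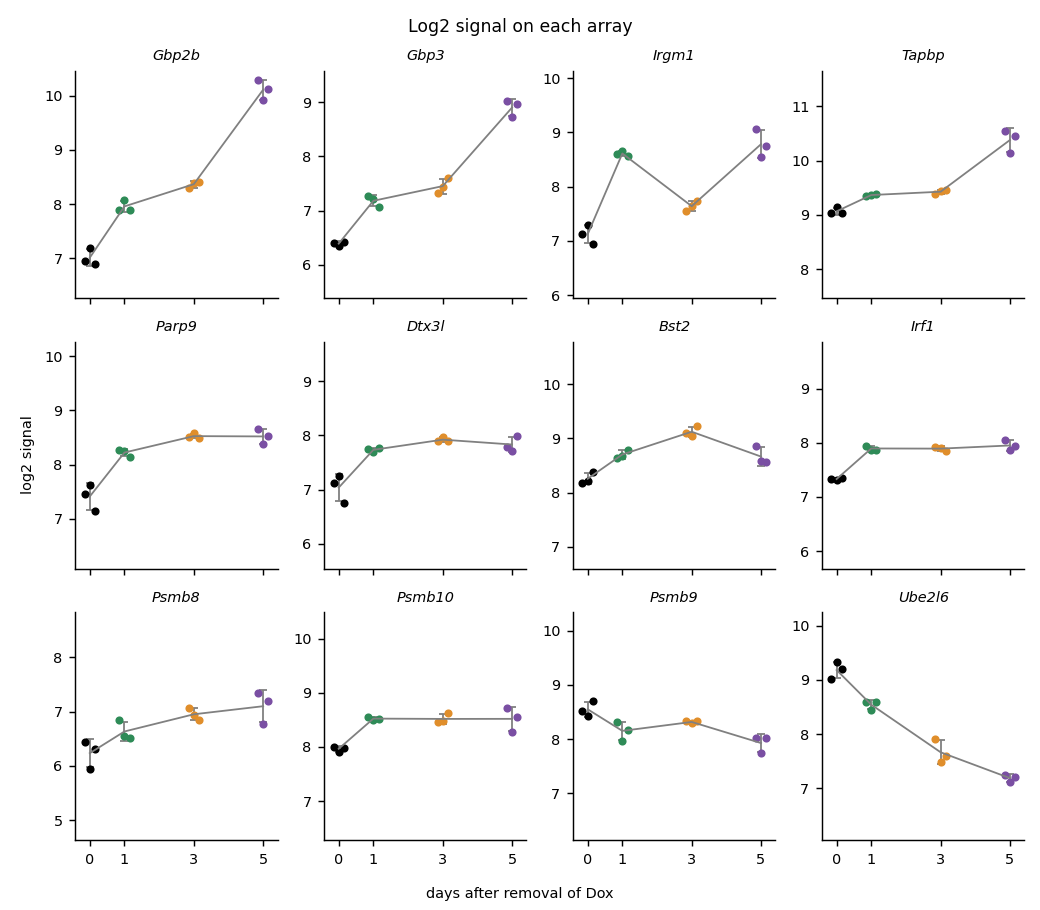
Log2 signal (vertical axis, the same span in each panel) of 12 genes on each of 12 arrays, by days after removal of Dox (horizontal axis). Points are arrays, lines join the means of each day and bars are SD (n = 3), and Gbp2b reaches 9.92 to 10.29 at day 5, Irgm1 dips to 7.54 to 7.73 at day 3, and Ube2l6 ends at 7.11 to 7.24.

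Genes around Isg15, a ubiquitin-like protein that is joined to other proteins after interferon, moved in both directions. Parp9 and Dtx3l encode a complex of an ADP-ribose binding protein and a ubiquitin ligase, and their genes start head to head on chromosome 16. Parp9 had log2 signals of 7.45, 7.63 and 7.15 at day 0, 8.27, 8.26 and 8.14 at day 1, 8.50, 8.57 and 8.49 at day 3, and 8.66, 8.38 and 8.52 at day 5. Dtx3l had 7.11, 7.25 and 6.75 at day 0, 7.75, 7.69 and 7.76 at day 1, 7.89, 7.98 and 7.90 at day 3, and 7.79, 7.72 and 7.99 at day 5. Both were above every day 0 array on all later arrays, and neither was called between days 3 and 5. The log2 change against day 0 was 0.81, 1.11 and 1.11 for Parp9 and 0.70, 0.88 and 0.79 for Dtx3l at days 1, 3 and 5, with adjusted p from limma of 2.5e-06 and 6.0e-05 at day 5. Parp14, an ADP-ribosyltransferase, averaged 7.52 ± 0.10 at day 0, 7.91 ± 0.07 at day 1, 7.45 ± 0.07 at day 3 and 7.78 ± 0.05 on the last day (± SD over n = 3), and was called higher at days 1 and 5 but not at day 3.

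Ube2l6, the enzyme that carries Isg15 to its targets, fell furthest of the group. It had log2 signals of 9.02, 9.33 and 9.19 at day 0, 8.59, 8.44 and 8.59 at day 1, 7.91, 7.48 and 7.60 at day 3, and 7.24, 7.11 and 7.21 at day 5. Every day lay below the one before it with no overlap. It was 3.98-fold lower at day 5 than at day 0 (log2 change -1.99, standard error 0.11, adjusted p = 1.7e-08 from limma). Usp18, which removes Isg15 and restrains type I interferon signaling, was near background on 11 of 12 arrays and was called higher at day 5 by 0.34 (adjusted p = 0.032). The probe set shared by Isg15 and Gm9706 was at 6.09 at day 5, against 6.02 at day 0 (adjusted p = 0.66), so that no rise of Isg15 was detected there.

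Stat2 and Irf9, which carry type I interferon signals into the nucleus, were not called higher than day 0 on any day. Stat2 had log2 signals of 8.53, 8.58 and 8.60 at day 0, 8.51, 8.61 and 8.45 at day 1, 8.90, 8.68 and 8.73 at day 3, and 8.57, 8.76 and 8.61 at day 5. Day 3 lay above days 0 and 1, by 0.21 against day 0 (adjusted p = 0.054), while the other days overlapped, and the change at day 5 was 0.08 (95% confidence interval -0.08 to 0.24). Irf9, the DNA-binding partner of Stat2, had 8.09, 8.05 and 8.02 at day 0, 8.07, 7.98 and 7.85 at day 1, 7.82, 7.64 and 7.59 at day 3, and 7.59, 7.67 and 7.60 at day 5. It fell at days 3 and 5, by 0.37 and 0.43 (adjusted p = 0.0019 and 0.00037 from limma), with all arrays of both days below day 0. Irf3, activated by viral RNA and DNA, was called lower at day 3 alone, by 0.23, and Irf7, the amplifier of type I interferon, was near background on all arrays.

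Irf1, the factor that interferon gamma switches on early, had log2 signals of 7.34, 7.31 and 7.35 at day 0, 7.95, 7.87 and 7.87 at day 1, 7.93, 7.90 and 7.85 at day 3, and 8.06, 7.86 and 7.93 at day 5. The arrays of days 1, 3 and 5 overlapped each other and all lay above day 0, by 0.56, 0.56 and 0.62. This value is the mean of a pair of probe sets that disagree. One had a mean log2 signal of 8.51 at day 0 and was higher by 1.16, 1.08 and 1.18 at days 1, 3 and 5 (adjusted p = 1.4e-05 at day 5), and the other was at 6.16 and changed by -0.03, 0.04 and 0.06 (adjusted p = 0.68 at day 5).

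Of 16 interferon genes measured, 0 were called at days 1 and 5 (limma, with 1 at day 1 and 2 at day 5 at an unadjusted p under 0.05), 1 was called lower at day 3 (Ifna9, by 0.32) and 8 were near background on all arrays. Their receptors and kinases were called higher at day 5 in 7 of 9 cases (77.8%, against 17.4% of all genes), with Jak2 higher by 1.02, Ifngr2 by 0.85, Ifngr1 by 0.75 and Il10rb by 0.70. At day 1 only Ifngr1 of these 9 was called higher, by 0.30, and Jak1 was called lower, by 0.26. Of 17 negative regulators of the pathway, 8 were called higher at day 5 (47.1%), led by Tnfaip3 (0.99), and 1 lower, Rnf125 (-1.56). The share lower was 5.88%, against 17.6% of all genes.

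The cytoplasmic sensors of viral RNA, Ddx58 and Ifih1, and the Rig-I activator Trim25 showed 3 different courses. Ddx58, which encodes Rig-I, had log2 signals of 9.60, 9.72 and 9.45 at day 0, 9.59, 9.51 and 9.54 at day 1, 8.99, 8.72 and 8.82 at day 3, and 9.41, 9.33 and 9.43 at day 5. Day 3 lay below all other days, by 0.74 against day 0 (adjusted p = 1.7e-05 from limma), and day 5 was above day 3 by 0.54 (adjusted p = 0.00027). Trim25, the ubiquitin ligase that activates Rig-I, had 10.38, 10.36 and 10.26 at day 0, 10.33, 10.42 and 10.35 at day 1, 9.999, 9.98 and 9.92 at day 3, and 9.97, 10.02 and 10.01 at day 5. It fell by 0.37 at day 3 and 0.33 at day 5, with no array of these days reaching day 0 or day 1. Ifih1, which encodes Mda5, was near background on all arrays and was called higher at day 5, by 0.61 (adjusted p = 6.7e-05). Of 15 further adaptors and kinases of RNA sensing, 5 were called higher and 1 lower at day 5, and the largest of these rises was 0.33, of Tank. These shares, 33.3% and 6.67%, stand against 17.4% and 17.6% of all genes. At day 3, 2 were higher (13.3%, against 13.5% of all genes) and 4 lower (26.7%, against 13.1%).

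Of the genes used as a sign of type I interferon, Ifit1, Ifit3, Mx1, Mx2 and Rsad2 were near background on all arrays. Ifit1, which binds viral RNA ends, had log2 signals of 6.18, 5.91 and 5.50 at day 0, 6.19, 6.08 and 6.24 at day 1, 5.82, 5.58 and 5.78 at day 3, and 5.60, 5.90 and 5.77 at day 5. No array of it passed the background level and its change at day 5 was -0.10 (95% confidence interval -0.40 to 0.20). Ifit3, Mx1, Mx2 and Rsad2, the last encoding viperin, were also near background on all 12 arrays, with changes at day 5 between -0.13 (Ifit3) and 0.21 (Mx1). Of these 5 genes 0 were called at day 5 by limma, and 1, Mx1, had an unadjusted p under 0.05. At day 1 an unadjusted p under 0.05 was reached by 3 of the 5, all higher, namely Mx1, Ifit1 (0.31, adjusted p = 0.20) and Rsad2 (0.23, adjusted p = 0.092). Ifit1 was called lower at day 3 than at day 1, by 0.44 (adjusted p = 0.038), and its change at day 1 was called without day 0 replicate 1 (0.46, adjusted p = 0.045). Mx1 was called higher at day 1, by 0.28 (adjusted p = 0.045), at a mean log2 signal of 4.11, against 3.83 at day 0. Ifit2 and Oas1a were near background on no array, and Oas2 on 3. Ifit2 and Oas2 were not called against day 0 on any day, with changes of -0.18 and -0.09 at day 5. Oas1a was called lower by 0.39 at day 3 and 0.35 at day 5 (adjusted p = 0.030 and 0.037 from limma).

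**Figure D3:**
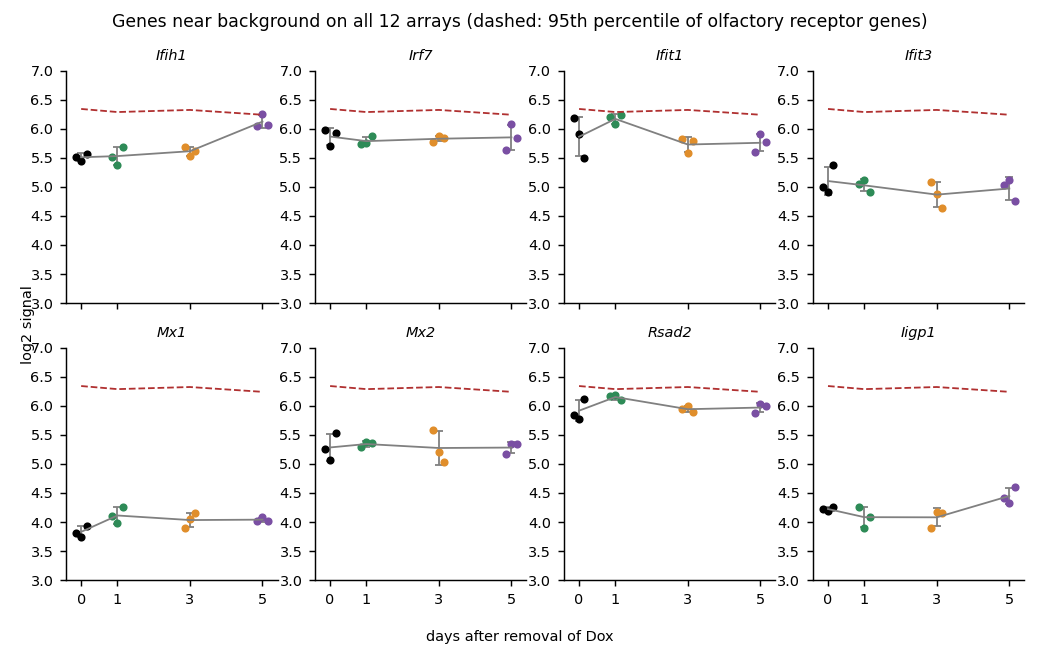
Log2 signal (vertical axis) of the 8 genes that were near background on all 12 arrays, by days after removal of Dox (horizontal axis). Points are arrays, bars are SD around the mean of a day (n = 3) and the dashed line is the mean, over the arrays of a day, of the 95th percentile of olfactory receptor genes, and all points lie under the level of their own array, Ifih1 closest to it at day 5 with 6.04 to 6.25.

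Bst2, Ifitm1, Ifitm2 and Ifitm3, whose proteins sit in membranes, were above background on all arrays. At day 5 Bst2 and Ifitm3 were higher, and Ifitm1 and Ifitm2 lower. Bst2, the tetherin that holds virus particles at the cell surface, had log2 signals of 8.18, 8.22 and 8.37 at day 0, 8.64, 8.68 and 8.79 at day 1, 9.11, 9.04 and 9.23 at day 3, and 8.86, 8.58 and 8.56 at day 5. It was highest at day 3, 1.82-fold above day 0 (log2 change 0.87, adjusted p = 9.8e-06 from limma), and fell by 0.46 between days 3 and 5 (adjusted p = 0.0018), with day 5 still above all arrays of day 0. The Ifitm proteins hinder viral entry, and their genes lie side by side on chromosome 7. Ifitm2 had 10.74, 10.99 and 10.80 at day 0, 10.62, 10.65 and 10.63 at day 1, 10.52, 10.47 and 10.50 at day 3, and 10.19, 10.12 and 10.09 at day 5. Its days did not overlap, and it was lower than day 0 by 0.35 at day 3 and 0.71 at day 5 (adjusted p = 2.0e-06). Its steps from day 0 to day 1 (-0.21) and from day 1 to day 3 (-0.14) were not called (adjusted p = 0.060 and 0.17 from limma). Ifitm1 had 11.41, 11.60 and 11.49 at day 0, 11.49, 11.38 and 11.51 at day 1, 11.53, 11.48 and 11.58 at day 3, and 11.19, 11.10 and 11.03 at day 5. Only its day 5 arrays stood below the others, by 0.39 against day 0 (adjusted p = 0.00043). Ifitm3 averaged 11.58 ± 0.22 at day 5, against 11.04 ± 0.17 at day 0 (± SD over n = 3), and was called higher by 0.54 (adjusted p = 0.00092). Of the 12 antiviral effectors measured, 2 were higher at day 5 (Bst2 and Ifitm3), 3 lower (Ifitm1, Ifitm2 and Oas1a) and 7 not called. These shares, 16.7% higher and 25.0% lower, stand against 17.4% and 17.6% of all genes.

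Of the 8 class I presentation genes, 5 rose at day 5, 2 fell and 1, Nlrc5, the transactivator of class I genes, was not called. The share higher was 62.5%, against 17.4% of all genes, and the share lower 25.0%, against 17.6%. Tapbp, which encodes tapasin, the bridge between the peptide transporter and class I molecules, had log2 signals of 9.03, 9.14 and 9.03 at day 0, 9.35, 9.37 and 9.38 at day 1, 9.38, 9.45 and 9.45 at day 3, and 10.55, 10.14 and 10.46 at day 5. The arrays of each day stood above those of the day before. The step from day 1 to day 3 was only 0.06 and was not called (adjusted p = 0.70 from limma). Of the change of 1.32, 0.95 came between days 3 and 5 (adjusted p = 1.1e-07 for day 5 against day 0, limma). B2m, the light chain of class I molecules, had 11.15, 11.34 and 11.15 at day 0, 11.15, 11.12 and 11.17 at day 1, 11.34, 11.28 and 11.28 at day 3, and 11.49, 11.57 and 11.51 at day 5. Day 0 overlapped days 1 and 3, and day 5 lay above all 3, by 0.31 against day 0 (adjusted p = 0.0012).

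The peptide supply split between neighbouring genes. Psmb8, Psmb9 and Psmb10 encode the catalytic subunits that turn a standard proteasome into an immunoproteasome, and Psmb9, Tap1, Psmb8 and Tap2 lie next to each other on chromosome 17. Psmb9 had log2 signals of 8.52, 8.43 and 8.70 at day 0, 8.32, 7.97 and 8.17 at day 1, 8.33, 8.29 and 8.33 at day 3, and 8.02, 7.74 and 8.03 at day 5. All later arrays lay below day 0, and it was called lower at day 1, by 0.40 (adjusted p = 0.022), and at day 5, by 0.62 (adjusted p = 0.00027), but not at day 3 (-0.23, adjusted p = 0.11). The call at day 1 was lost without day 0 replicates 1 or 3 or day 1 replicates 2 or 3. Tap1, one part of the peptide transporter, starts beside Psmb9 on the opposite strand and was also lower, by 0.31 at day 5 (adjusted p = 0.0020). The other part of the transporter, Tap2, was higher by 0.43 (adjusted p = 0.00014), and Psmb8 averaged 7.10 ± 0.29 at day 5, against 6.23 ± 0.25 at day 0, higher by 0.87, with 2 arrays of day 0 near background (SD, n = 3 each, adjusted p = 0.00050 from limma). Psmb10 was higher by 0.56, 0.55 and 0.55 at days 1, 3 and 5.

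Among 24 further genes of class I presentation, 13 were called higher at day 5 (54.2%, against 17.4% of all genes) and 1 lower (4.17%, against 17.6%). Erap1, which trims peptides, rose by 1.85, H2-Q4, a class Ib chain, by 1.33, and Psme2 and Psme1, which encode the interferon-responsive activator of the proteasome, by 1.02 and 0.73, while H2-M3 fell by 0.35. Erap1, H2-Q4 and Psme2 were already higher at day 1, by 0.90, 0.72 and 0.64. Of the 14 subunits of the standard proteasome, 0 were higher and 5 lower at day 5 (limma, 1 and 6 at an unadjusted p under 0.05), the largest change being that of Psmb5, -0.25. The shares called by limma, 0.0% and 35.7%, stand against 17.4% and 17.6% of all genes. Of 9 class II genes, 1 was higher, Cd74, by 0.47, and 2 lower (11.1% and 22.2%, against 17.4% and 17.6% of all genes).

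A further list held 52 measured genes known to be induced by interferon, 1 of them, Ifih1, also among the 37, and of these 52, 10 were higher at day 5, 8 lower and 34 not called, with 20 near background on all arrays. Cxcl10, a chemokine, was higher by 2.15, Nmi by 1.07 and Oasl2 by 0.92, and Phf11d was lower by 1.23, Xaf1 by 0.67 and Pml by 0.60. Their shares at day 5, 19.2% higher and 15.4% lower, were near those of all genes, 17.4% and 17.6%. Of 14 genes known as NF-kB targets, 4 were higher at day 5 and 4 lower (28.6% each).

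**Figure D4:**
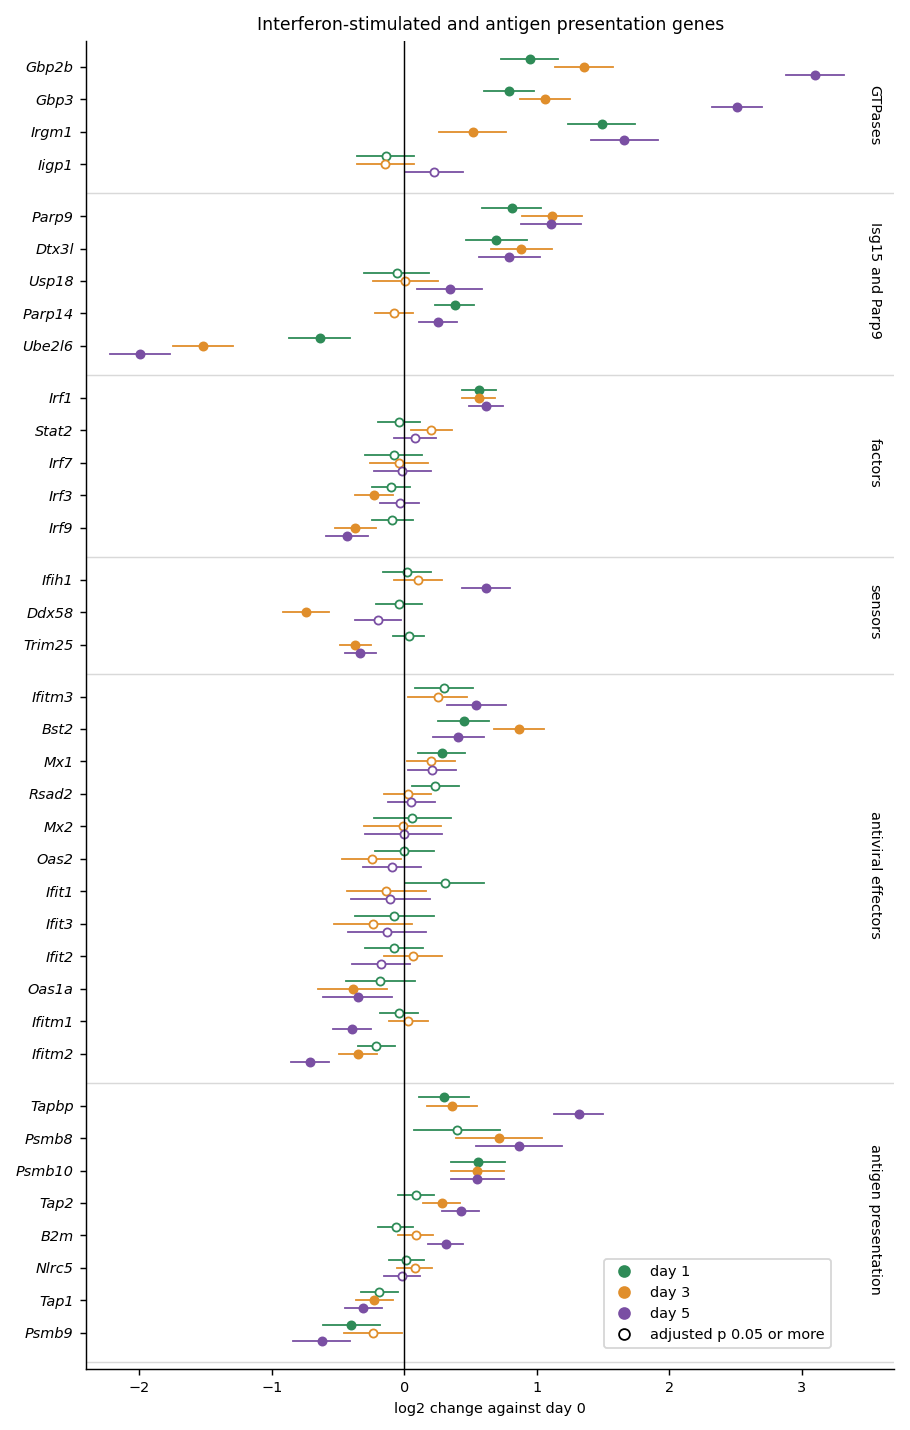
Log2 change against day 0 (horizontal axis) of the 37 genes, grouped by role, at day 1 (green), day 3 (orange) and day 5 (purple). Bars are 95% confidence intervals from limma, filled points had an adjusted p under 0.05 over all genes and open points did not, and the changes at day 5 run from -1.99 for Ube2l6 to 3.10 for Gbp2b.

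Between successive days the genes that rose did not keep step. Between days 1 and 3, 5 of the 37 were called higher (13.5%) and 7 lower (18.9%), against 9.20% and 11.6% of all genes. Between days 3 and 5, 10 were higher (27.0%) and 5 lower (13.5%), against 13.0% and 12.2% of all genes. Irgm1, Parp14 and Ddx58 fell between days 1 and 3 and rose between days 3 and 5, 3 of 37 (8.11%, against 2.49% of all genes). Of the 16 fibroblast markers, 9 were called lower between days 1 and 3, and 7 higher and 2 lower between days 3 and 5, and their part in these results was not tested. Bst2 did the reverse, Gbp2b and Gbp3 rose in both steps, and Ube2l6 fell in both. The 5 genes higher at day 3 than at day 1 were Stat2, Bst2, Gbp2b, Gbp3 and Tap2. This count was 2 without day 1 replicate 1 or day 1 replicate 3 (6.92% and 6.95% of all genes). It was 3 without day 0 replicate 1, day 1 replicate 2 or any array of day 3 (7.02% to 8.95% of all genes).

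Genes with the letters of the interferon-stimulated response element were among those that rose, those that fell and those not called. Of the 14 genes with them in the promoter window, 7 were higher at day 5, 2 lower and 5 not called, and of the 14 without them 5 were higher, 6 lower and 3 not called. At day 1 the counts were 4 higher and 0 lower with the letters, and 4 higher and 2 lower without. At day 3 they were 4 higher and 3 lower with the letters, and 5 higher and 5 lower without. Of all genes, 17.4% were called higher and 17.6% lower at day 5, and the share among all genes with the letters is not given here. Whether the letters go with a rise was not tested. Of the 14 with the letters, 4 were near background on all arrays, Ifit1, Ifit3, Rsad2 and Ifih1. Of the 6 genes with a gamma-activated site (Irf1, Ifit2, Oas1a, Bst2, Ifitm3 and Psmb8), 4 were higher at day 5, 1 was lower and 1 not called. Of the pairs of neighbours that start on opposite strands, Parp9 and Dtx3l were both called higher at all 3 days. Psmb9 and Tap1 were both called lower at day 5. At day 1 Psmb9 was called (-0.40) and Tap1 was not (-0.19, adjusted p = 0.085 from limma). At day 3 Tap1 was called (-0.23) and Psmb9 was not (-0.23, adjusted p = 0.11 from limma). On both days all arrays of both genes lay below day 0, and a difference between these genes was not tested.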

How the data were processed

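The 12 arrays were of the Affymetrix type Mouse Gene 1.0 ST. For each probe set the authors deposited a log2 value per array, normalized by Robust Multichip Average (RMA) with Expression Console (version not given in the sources used here). RMA makes the arrays alike in distribution, so a shift of most genes would not be seen. Of 35557 probe sets, 21789 had 1 symbol in the platform annotation, 1621 several and 12147 none. Those with 1 symbol were averaged per gene (19938 genes), and those with several were read only as shared signals. Of the 37 genes, 33 had 1 probe set and 4 several.

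A linear model with 1 mean per day and 8 residual degrees of freedom was fitted to every gene (limma 3.58.1, R 4.3.3) and moderated by empirical Bayes. Benjamini-Hochberg adjustment covered the 19938 genes together, and genes with an adjusted p under 0.05 were called. An exact two-sided permutation test of a single gene could not go under 0.10 with 3 arrays a day. The script was tested on simulated data. Replicates are those of the labels, and nothing in the labels pairs the same number across days. The number of arrays limits the precision. The 43 genes and all further lists were chosen with earlier results of these data known. Values on every array are given for Irgm1, Gbp2b, Ifit1, Stat2, Irf1, Irf9 and B2m, and for up to 5 genes per day and direction with the largest change among those called and without overlap between arrays. From each further list up to 4 genes per day and direction were named. The genes in the plots and those whose patterns over the days are named were chosen after their values were seen.

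Alternatives tried were the brightest probe set per gene, every probe set tested by itself, dim genes left out (mean log2 signal under 6), a second quantile normalization, median centring, a trended robust variance, array weights, a replicate block, only the arrays of the days compared, each array left out, and the rule of the study's methods. Promoter windows came from RefSeq, build GRCm38.p6, which held 28 of the 37 genes. Tables used Python 3.11.15 with pandas 2.3.3, and plots matplotlib 3.10.9. Other data of the study were not analysed here.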

Additional observations from a re-analysis of the deposited data

Results flagged for a closer look

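Probe sets shared by several genes carried signals for genes of the group that could not be measured alone, and 4 of them were called higher at day 5 than at day 0 with no overlap between the arrays (limma, tested with every probe set by itself). The signal cannot be given to 1 gene. The probe set of Gbp2 and Gbp2b was higher by 3.32 (mean log2 signal 10.74 at day 5, against 7.42 at day 0, adjusted p = 7.5e-08), beside 3.10 for Gbp2b alone. That of Irgm2 and Igtp was higher by 0.83 (6.57 at day 5, against 5.75 at day 0, adjusted p = 3.8e-05), with changes of 0.60 and 0.86 at days 1 and 3. A pair of probe sets was shared by H2-K1, H2-D1 and LOC547349, the classical class I heavy chains. One was higher by 0.97 (9.60 at day 5, against 8.63 at day 0, adjusted p = 0.00020) and the other by 0.27 (9.00 at day 5, against 8.73 at day 0, adjusted p = 0.013). The probe set of Isg15 and Gm9706 was not called (change 0.07, adjusted p = 0.66 from limma). The probe set of Oas1a and Oas1g was lower by 0.59 with no overlap (6.76 at day 5, against 7.35 at day 0, adjusted p = 0.00012). Those of Rps3a1 and Tapbp were not called. For scale, 17.4% of all genes were called higher at day 5 and 17.6% lower, and the shares over all probe sets are not given here. The share of each gene in these signals was not tested.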

How the results depend on the processing

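The counts of genes called higher at days 1, 3 and 5 stayed within 1.5 times their values under every alternative run. With 1 array left out they ran from 9 to 11, 11 to 13 and 15 to 16. The 2 genes lower at day 1 became 1 with only the arrays of both days, 1 with every probe set tested, and 1 to 3 with 1 array left out. Of all genes, 3.68% were lower with only these arrays and 2.52% to 4.87% with 1 array left out. The 8 lower at day 3 ran from 5 to 8 with 1 array left out, beside 10.3% to 13.3% of all genes. The 5 genes higher at day 3 than at day 1 became 3 after median centring, 2 with every probe set tested, and 2 to 5 with 1 array left out. Of all genes, 7.91% were higher after median centring and 6.92% to 9.71% with 1 array left out. The shares with every probe set tested are not given here. Over the time course 25 genes were called by the moderated F test and 3 by the rule of the methods. Of 18 pairs of same-numbered arrays, 0 had deviations from the day means correlated over 0.1. Of 36 pairs with different numbers, 5 did. Whether the samples were paired, by these numbers or otherwise, cannot be told from such weak correlations. With the replicate block the counts higher and lower were 17 and 7 at day 5, 11 and 9 at day 3, and 11 and 2 at day 1. The shares of all genes with this block were 16.7% and 16.7% at day 5, 12.5% and 12.0% at day 3, and 5.36% and 3.88% at day 1. Changes of single genes under the alternatives were read only for the 18 genes of the group whose values on every array are given. Many of these were chosen for large called changes without overlap, so that kept calls were partly set by the choice. Other genes of the group, such as Mx1, Usp18 and Oas1a, were not read in this way. Of 1143 changes of the 18 genes, 1105 kept direction and call, 21 lost the call, 16 gained it and 1 turned. The turned change is that of Irf1 at day 1, which was -0.034 by the second of its probe sets. Tapbp at day 1 (0.30) lost its call with median centring (adjusted p = 0.075), with the replicate block (0.071), with every probe set tested (0.093) and without each array but day 5 replicates 1 and 2 (at most 0.13), and Psmb9 at day 1 without day 0 replicates 1 or 3 or day 1 replicates 2 or 3 (at most 0.095), with only the arrays of both days (0.051) and with every probe set tested (0.059). Psmb9 at day 3 gained a call with the replicate block (0.046). Stat2 at day 3 (0.21) gained a call with dim genes left out (0.033), with a trended robust variance (0.029), with array weights (0.043) and without day 3 replicate 2 or day 5 replicate 2 (0.042 each). The cause was not tested. Neither scaling moved the median change of all genes by over 0.06. Genes near background limit what a missing call can show.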
